A study of Mus musculus with 6 samples.

Results

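The mouse genes whose symbol is Zfp followed by digits were examined for DNA methylation in androgenetic haploid embryonic stem cells and in round spermatids. A gene was taken when it was protein-coding, lay on chromosomes 1 to 19 of the RefSeq annotation and held at least 3 cytosine positions with 10 or more reads in all 6 libraries, within the gene and 1 kb on each side. This gave 207 genes of the 360 Zfp-named genes there and of 12062 protein-coding genes measured in the same way, which left 11855 other genes for comparison. The choice used names and coverage, and no methylation value. Of the 207 genes, 104 were clustered, with another Zfp-named gene within 100 kb, and 103 were lone. Chromosome 7 alone held 55 of them, of its 90 Zfp-named genes.

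The libraries were made by reduced representation bisulfite sequencing (RRBS), in which the enzyme MspI cuts at CCGG, a size fraction is kept, and bisulfite turns unmethylated cytosines into uracil. Androgenetic haploid embryonic stem cells (AG-haESCs) are derived from embryos whose single chromosome set comes from a sperm. The groups were 3 double knockout (DKO) AG-haESC lines at passages 32, 31 and 29, with the H19 DMR and the IG-DMR, control regions of imprinted domains, labelled as deleted, 2 wild-type (WT) AG-haESC lines at passages 31 and 18, and 1 library of round spermatids, the haploid cells that follow meiosis in the testis. All were C57BL/6, and the lines were kept on a feeder layer with 2i, inhibitors that hold ES cells in a naive state. The titles of DKO line 2 and WT line 1 share the name OG3, those of DKO line 3 and WT line 2 share AGH-2, and DKO line 1 is named AGH-4. The labels do not say that the lines come from separate embryos, so p-values between them cover just the spread among these 5 samples. The deletions themselves were not analysed here.

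Most Zfp-named genes encode proteins with an array of C2H2 zinc fingers, each finger reading a few bases of DNA, and in many the fingers follow a KRAB domain. A KRAB domain recruits Trim28, which brings the H3K9 methyltransferase Setdb1 and DNA methyltransferases to the bound site, and such proteins silence retroelements in embryonic stem cells. Zfp57 and Zfp445 keep methylation at imprinted regions in the embryo. Many of these genes arose by local duplication and stand in arrays, and the finger array is usually encoded in the last exon. The name covers other proteins too, as Zfp36 encodes a CCCH finger protein that promotes mRNA decay.

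Levels are percentages of methylated reads, summed over the positions of a region. The DKO lines had 201982492, 205637856 and 197728785 reads over cytosines, the WT lines had 227097459 and 255726544, and round spermatids had 293920118. Over the 227992 positions of chromosomes 1 to 19 covered in all 6 libraries, levels averaged 5.1%, 7.22% and 5.05% in DKO lines 1 to 3, 8.06% and 4.11% in WT lines 1 and 2, and 22.5% in round spermatids. The lower level in the lines was thus present over all positions and forms the background of every comparison with round spermatids. Round spermatids are 1 library, so a difference from them has no replicate check on that side. Intervals given for that library are 95% Wilson intervals, and the limit for a level of 0 is 3 reads of the total. Reads amplified by PCR carried no molecular identifiers and a read covering several cytosines counts at each, so both cover counting error only.

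The genes were divided into a promoter (1 kb before to 0.5 kb after the annotated start, on the gene strand), a last 3 kb window at the 3′ end, and a body between them. Exon positions were not used here, so the last 3 kb of the gene stands in for the last exon and may hold introns and UTRs. Strand was known for 169 of the 207 genes, of which 33 had more than 1 listed start and the outermost was taken. A promoter was measured in 127 genes, a body in 60 and a last 3 kb window in 31, each with at least 3 positions. At least 2 regions were measured in 53 genes and all 3 in 6, while 10 genes of known strand had none. The 38 genes of unknown strand have a level over the whole gene only. At the edge of the coverage rule, the 19 Zfp-named genes with exactly 3 positions averaged 5.44% in the lines and 18.3% in round spermatids, while the 18 with 2 positions, left out, averaged 5.56% in the lines and 36.6% in round spermatids. Another 116 Zfp-named genes had no shared position.

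The promoters of Zfp-named genes were almost free of methylation in all 6 libraries. Their mean level was 0.264%, 0.551% and 0.312% in DKO lines 1 to 3, 1.14% and 0.115% in WT lines 1 and 2, and 0.0518% in round spermatids. The promoters of the other genes averaged 0.566% in the lines and 1% in round spermatids. In round spermatids 125 of the 127 Zfp promoters were below 1% (98.4%, against 96.1% of all promoters), none reached 50%, where 50 of all promoters did (0.737%), and the highest was Zfp14 at 1.39% (interval 1.15 to 1.68). The other above 1% was Zfp946 at 1.22%, where DKO lines 1 to 3 had 0% each and WT lines 1 and 2 had 0.0966% and 0.0875%. In the lines, 109 promoters were below 1% in every one of the 5 (85.8%, against 84.5% of all promoters).

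The sequences below show the promoters of 3 genes whose methylation in the lines is described next, and that of Zfp148 as one with almost no methylation. Each runs 5′ to 3′ on the gene strand from 250 bases before to 50 bases after the listed start (RefSeq, GRCm38.p6, the assembly of mm10), and capitals mark the CpGs measured in all 6 libraries.
Zfp951, chr5:104860019-104860318, minus strand: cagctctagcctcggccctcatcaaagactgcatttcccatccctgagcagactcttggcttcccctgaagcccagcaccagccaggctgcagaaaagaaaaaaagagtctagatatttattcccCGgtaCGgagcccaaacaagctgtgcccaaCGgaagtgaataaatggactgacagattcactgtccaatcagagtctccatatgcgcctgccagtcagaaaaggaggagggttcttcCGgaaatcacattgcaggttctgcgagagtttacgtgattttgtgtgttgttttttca
Zfp560, chr9:20385109-20385408, minus strand: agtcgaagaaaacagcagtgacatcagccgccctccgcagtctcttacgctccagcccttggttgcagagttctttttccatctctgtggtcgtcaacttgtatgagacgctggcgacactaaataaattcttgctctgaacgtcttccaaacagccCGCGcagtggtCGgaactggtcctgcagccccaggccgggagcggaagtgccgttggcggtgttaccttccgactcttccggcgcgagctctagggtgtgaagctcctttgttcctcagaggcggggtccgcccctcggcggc
Zfp169, chr13:48513387-48513686, minus strand: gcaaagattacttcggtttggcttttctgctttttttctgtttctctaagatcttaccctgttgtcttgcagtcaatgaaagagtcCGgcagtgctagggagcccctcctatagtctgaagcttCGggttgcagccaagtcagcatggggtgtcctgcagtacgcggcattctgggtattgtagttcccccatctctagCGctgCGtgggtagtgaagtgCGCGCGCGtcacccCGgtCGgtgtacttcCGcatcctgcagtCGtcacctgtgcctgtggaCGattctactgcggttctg
Zfp148, chr16:33380525-33380824, plus strand: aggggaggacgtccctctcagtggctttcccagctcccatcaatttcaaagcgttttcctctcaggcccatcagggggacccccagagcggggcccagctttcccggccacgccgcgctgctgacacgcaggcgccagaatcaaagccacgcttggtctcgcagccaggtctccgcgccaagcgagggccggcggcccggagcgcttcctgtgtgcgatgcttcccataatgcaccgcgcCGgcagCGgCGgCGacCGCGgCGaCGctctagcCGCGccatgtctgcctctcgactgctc
Every position measured within any promoter sequence of the table was the C or G of a CpG, 100% in each library. The MspI site CCGG, which reads the same on both strands, was present in 141 of 169 promoter sequences of the measured Zfp genes (83.4%), in 59.1% of the 132 of Zfp genes that were not measured, and in 63.3% of all 16457 protein-coding genes in the table. Measured genes are thus those with CpG-richer starts, with a median of 17 CpGs in 300 bases, against 8.5 in the Zfp genes not measured.

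A few Zfp promoters carried methylation in the lines, at about the share of all promoters. A level of 5% or more in any line was seen at 8 of 127 promoters (6.3%, against 6.56% of all promoters). It was seen in 1 line only at 5 of them and in at least 2 lines at 3, Zfp14, Zfp169 and Zfp629. That split was not counted over all promoters, so it cannot be read as a trait of Zfp-named genes. Zfp629 had 0.0435%, 9.28% and 0.0299% in DKO lines 1 to 3, 5.85% and 0.0161% in WT lines 1 and 2, and 0.0419% in round spermatids. Zfp951 had 0%, 0.109% and 0% in DKO lines 1 to 3, 54.8% and 0.0878% in WT lines 1 and 2, and 0.0602% in round spermatids (interval 0.0205 to 0.177). WT line 1 alone was high, and within it the 3 CpGs at 125, 120 and 95 bases before the start, the first 3 in capitals above, had 58.3%, 58.6% and 58.5%, while the CpG 7 bases before the start had 0%. Zfp560 had 0%, 0.3% and 0% in DKO lines 1 to 3, 33.3% and 0% in WT lines 1 and 2, and 0% in round spermatids, where the limit is 0.503%. In WT line 1 the CpG 92 bases before the start, the first of the CGCG in capitals, was at 100%, and the neighbouring CpG 2 bases further on was at 0%. These values rest on 13 reads in the least covered library and 253 or 254 in the most covered.

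Zfp14 and Zfp169 carried methylation in several lines, far from the start. The Zfp14 promoter window had 4.68%, 34.8% and 23.2% in DKO lines 1 to 3, 28.6% and 3.06% in WT lines 1 and 2, and 1.39% in round spermatids. Nearly all of it lay at 1 CpG, 783 bases before the start (the other 5 CpGs were at or below 0.437% in every library), with 29.7%, 66.6% and 84.4% in DKO lines 1 to 3, 63.2% and 15.1% in WT lines 1 and 2, and 41.4% in round spermatids. That single position was thus partly methylated in every library, and the window's level reflects how many reads fell on it. The Zfp169 window had 8.3%, 5.87% and 2.82% in DKO lines 1 to 3, 7.39% and 0.0439% in WT lines 1 and 2, and 0.0555% in round spermatids. Its methylation lay at the CpGs 942 and 987 bases before the start, which averaged 20.2% and 19.2% in the lines and had 0% and 0.31% in round spermatids, while the 13 CpGs in capitals above stayed at or below 0.462% in every library. Zfp879 had 3.01%, 0.0345% and 0% in DKO lines 1 to 3, 11.3% and 1.04% in WT lines 1 and 2, and 0% in round spermatids, limit 0.0167%. Its methylation peaked 175 bases after the start, with 89.5% in WT line 1 and 33.6% in DKO line 1. Zfp148, a GC-box binding regulator, had 0.0206%, 0.0302% and 0.03% in DKO lines 1 to 3, 0.0324% and 0.0253% in WT lines 1 and 2, and 0.00416% in round spermatids over 25 CpGs.

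**Figure D1:**
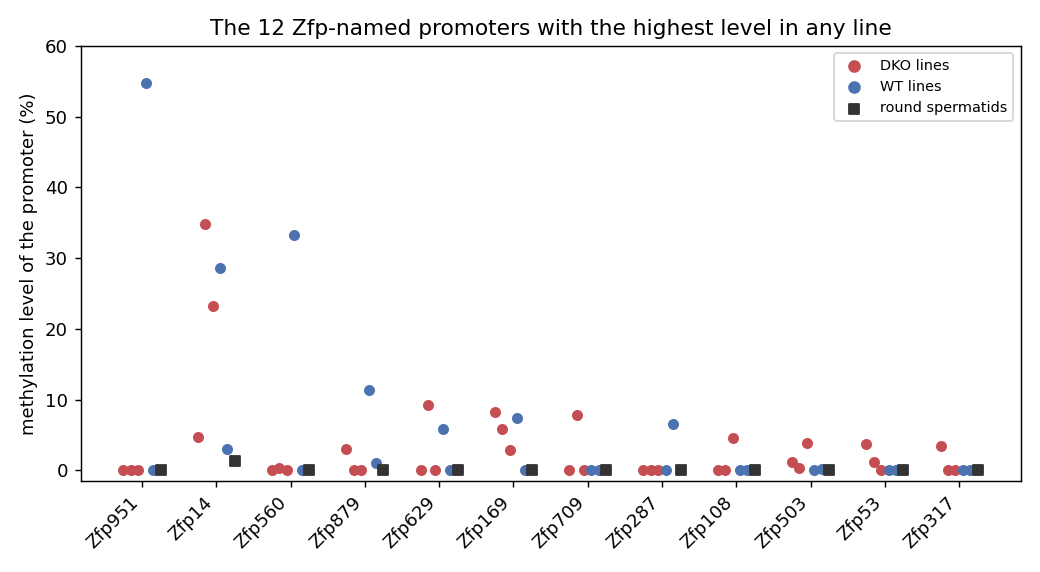
The 12 Zfp-named promoters with the highest level in any line, with the promoter methylation level in percent on the y axis. Each point is 1 library (DKO lines, WT lines, round spermatids); Zfp951 and Zfp560 are high in WT line 1 alone, at 54.8% and 33.3%, and round spermatids stay at or below 1.39%.

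The bodies of Zfp-named genes were methylated in round spermatids and much less in the lines. Their mean was 7.91%, 11.7% and 5.48% in DKO lines 1 to 3, 10.4% and 7.09% in WT lines 1 and 2, and 34.8% in round spermatids, and the other genes averaged 10.2% in the lines and 39.7% in round spermatids. The last 3 kb windows had 7.32%, 11.6% and 7.75% in DKO lines 1 to 3, 11.9% and 5.03% in WT lines 1 and 2, and 30.4% in round spermatids, against 9.94% in the lines and 39.1% in round spermatids for the other genes. Every line lay below round spermatids in both regions. Over the 5 lines the Zfp means were 8.52 ± 2.52% for bodies and 8.73 ± 2.97% for last 3 kb windows (SD, n = 5). The medians over genes were lower, 2.71% in the lines and 11.1% in round spermatids for bodies, and 4.15% in the lines and 3% in round spermatids for last 3 kb windows, so the means come from a minority of strongly methylated genes.

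**Figure D2:**
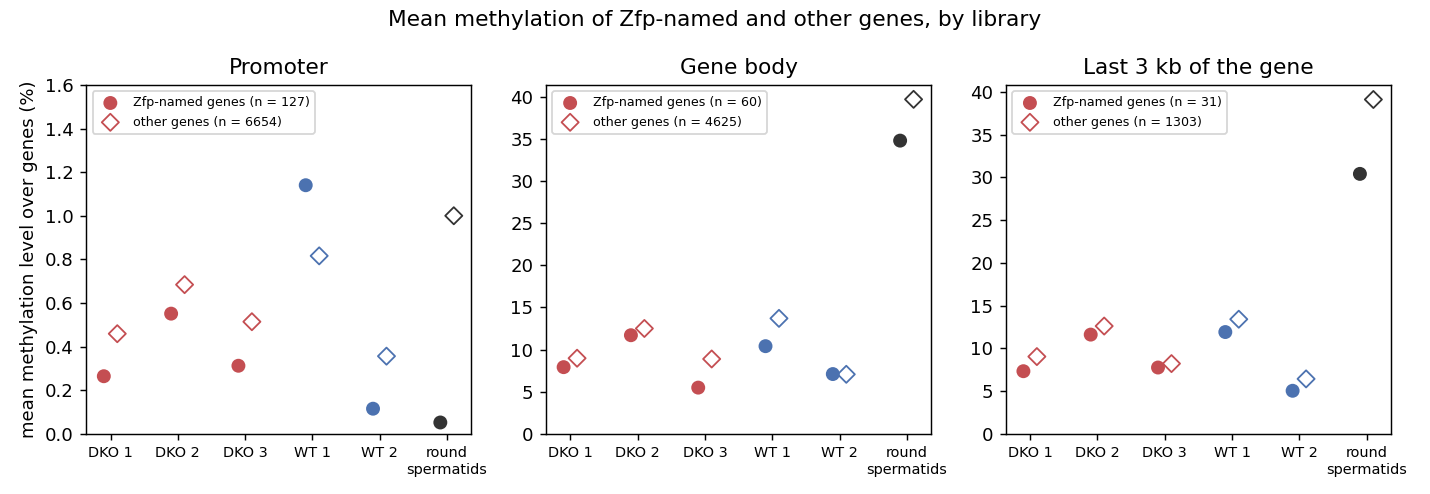
Mean methylation level in percent over Zfp-named genes (filled) and other genes (open) in each library, for promoters, bodies and last 3 kb windows, on separate y scales. Each point is the mean over genes of 1 library; in bodies and last 3 kb windows every line lies below round spermatids, at 5.03% to 11.9% against 30.4% and 34.8% for Zfp-named genes.

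A region was called lower when all 5 lines lay below round spermatids and their mean was at least 25 percentage points below, and higher for the reverse. By this rule, which is a rule of size without a p-value, 23 of 60 Zfp bodies were lower (38.3%), against 42.5% of all 4685 bodies measured. In the last 3 kb windows 10 of 31 were lower (32.3%), against 41.3% of all 1334. No Zfp promoter was lower, where 0.885% of all 6781 promoters were. Over the whole gene 25 of 207 were lower (12.1%), against 14.3% of all genes. No Zfp-named gene was higher in any region, against 0.213% of all bodies, 0.3% of last 3 kb windows, 0.0295% of promoters and 0.141% of whole genes. In bodies, last 3 kb windows and whole genes the shares of Zfp-named genes were thus near or below those of all genes. By edgeR on the 5 lines against round spermatids no promoter and no whole gene was called, Zfp-named or other. The 25 whole genes above thus rest on the rule of size alone. The bodies that edgeR called lower, counted next, include Zfp622, with a mean of 0.043% in the lines and 1.47% in round spermatids. edgeR on the 5 lines against that 1 library, which borrows its spread from the lines, called 11 Zfp bodies lower (18.3%, against 21.6% of all bodies) and 1, Zfp663, higher (against 1.02%). In last 3 kb windows it called 2 lower (against 15.2% of all these windows) and 3, Zfp341, Zfp579 and Zfp853, higher (against 2.27%).

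Each line set alone against round spermatids gave nearly the same counts. At least 25 points lower were 23, 22 and 24 Zfp bodies in DKO lines 1 to 3 and 22 and 24 in WT lines 1 and 2, where all genes had 43.1%, 41.3% and 43% in the DKO lines and 40.4% and 44.1% in the WT lines. In the last 3 kb windows the counts were 10, 11 and 11 in DKO lines 1 to 3 and 10 and 11 in WT lines 1 and 2, against 41.4%, 41% and 41.9% of all genes in the DKO lines and 40.3% and 42.3% in the WT lines. For promoters the count was 0 in every line, against 0.9%, 0.885% and 0.826% of all promoters in DKO lines 1 to 3 and 0.826% and 0.944% in WT lines 1 and 2.

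Among bodies the widest gap was in Zfp839 (chr12:110850251-110870006). Its body had 0.213%, 0.0711% and 0% in DKO lines 1 to 3, 1.72% and 0.0244% in WT lines 1 and 2, and 94.7% in round spermatids (interval 93 to 96). All 5 lines were near 0, and 8 of its 9 CpGs, which lie 5166 to 5439 bases after the start, were above 90% in round spermatids. Zfp334 (chr2:165374264-165388315) had 6.69%, 14.5% and 2.17% in DKO lines 1 to 3, 1.35% and 11.9% in WT lines 1 and 2, and 96.6% in round spermatids. Zfp523, a relative of the transcription activator Zfp143 and the fourth by gap, had 3.93%, 20.5% and 0.0457% in DKO lines 1 to 3, 10.8% and 3.47% in WT lines 1 and 2, and 95.4% in round spermatids over 4 CpGs. The lines differed among themselves at Zfp334 and Zfp523, and none came near the round spermatid level.

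The other 5 of the 8 largest gaps in bodies were in Zfp61, Zfp74, Zfp142, Zfp141 and Zfp667, all between 99.6% and 100% in round spermatids on 3 to 5 CpGs. Their means over the lines were 11.3% for Zfp61, 12.8% for Zfp74, 13.4% for Zfp142, 13.5% for Zfp141 and 18.1% for Zfp667. Single lines kept more, as Zfp142 had 22.1%, 39.9% and 0% in DKO lines 1 to 3, 1.64% and 3.19% in WT lines 1 and 2, and 100% in round spermatids (interval 98 to 100). Over the 23 lower bodies the mean of the lines lay between 0.405% in Zfp839 and 46.4% in Zfp507, and 12 of them were at 90% or more in round spermatids. Zfp507 had 68.5%, 51.2% and 46.8% in DKO lines 1 to 3, 44.5% and 20.9% in WT lines 1 and 2, and 99.7% in round spermatids (interval 98.6 to 100). Just inside the rule of size stood Zfp536 at 34 points below round spermatids, and just outside it Zfp668 at 21.8 and Zfp423 at 20.1 points below.

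In the last 3 kb windows, Zfp553 (on chromosome 7) had 0.0376%, 0.0555% and 0.0212% in DKO lines 1 to 3, 1.73% and 0.0197% in WT lines 1 and 2, and 100% in round spermatids (698 of 698 reads over 6 CpGs, interval 99.5 to 100). All 6 CpGs were fully methylated in round spermatids, and none passed 3.47% as a mean over the lines. Its promoter was at 0.0245% in round spermatids. Zfp566 had 0%, 5.45% and 0% in DKO lines 1 to 3, 4.12% and 9.57% in WT lines 1 and 2, and 100% in round spermatids, where only 47 reads were counted (interval 92.4 to 100). Zfp212 had 12.6%, 29.5% and 20.3% in DKO lines 1 to 3, 17.9% and 8.1% in WT lines 1 and 2, and 99% in round spermatids.

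The remaining 5 of the 8 largest gaps in that window were in Zfp641 (mean of 19.5% in the lines and 100% in round spermatids), Zfp128 (22.1% in the lines and 98% in round spermatids), Zfp661 (22.7% in the lines and 92.8% in round spermatids), Zfp688 (14.8% in the lines and 69.2% in round spermatids), together with Zfp319 (7.15% in the lines and 76.8% in round spermatids). Zfp661 shows both states within 1 gene, since its body had a mean of 0.0194% in the lines and 0.0526% in round spermatids. Zfp773 was methylated at 2 of its 4 CpGs in round spermatids, at 98.4% and 100%, and both were at 0% in all 5 lines. A CpG 6 bases from the first of these had 1.41%, 25.9% and 1.56% in DKO lines 1 to 3, 0% in both WT lines and 0% in round spermatids. The 33 lower bodies and last 3 kb windows belonged to 33 different genes. In 17 of these genes the promoter was measured too, and it was at most 0.319% in round spermatids and, apart from Zfp951, at most 1.83% in any line.

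**Figure D3:**
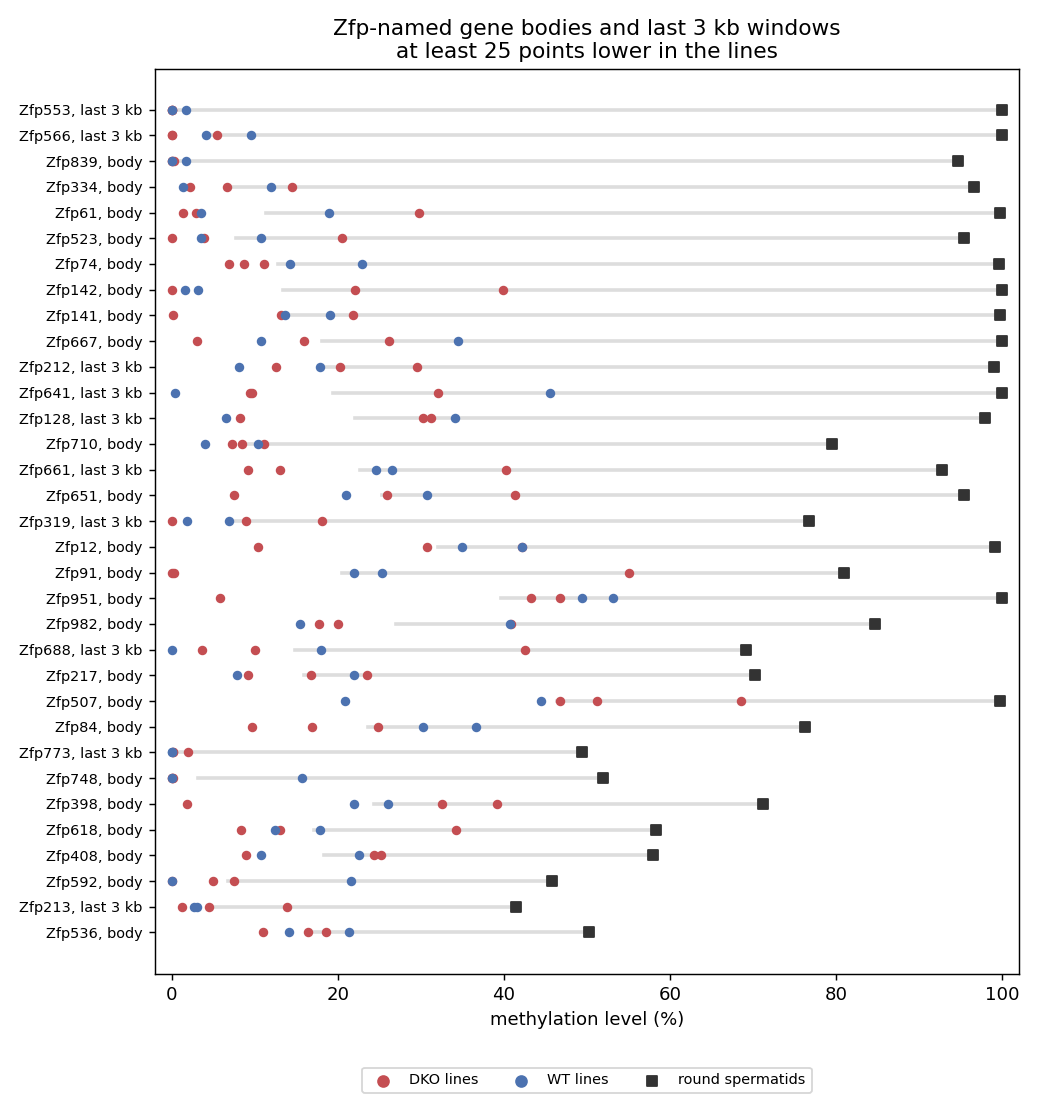
Methylation level in percent (x axis) of the 33 Zfp-named bodies and last 3 kb windows at least 25 points lower in the lines, ordered by the difference. Circles are single lines (DKO, WT), squares are round spermatids and grey bars join the mean of the lines to round spermatids; every line lies left of the square, and the lines spread from near 0% to 68.5%.

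Some Zfp regions were nearly unmethylated in round spermatids and carried partial methylation in the lines, none by 25 points or more. A round spermatid level under 1% with at least 5% in some line was seen in 4 of 60 bodies (6.67%, against 4.91% of all bodies) and 7 of 31 last 3 kb windows (22.6%, against 12.4% of all these windows). Zfp663 (chr2:165351297-165368736), which stands 5528 bases from Zfp334, had 9.77%, 18.9% and 5.64% in DKO lines 1 to 3, 4.63% and 7.68% in WT lines 1 and 2, and 0.132% in round spermatids (interval 0.0563 to 0.308) in its body. These neighbours thus lay on opposite sides of the lines in round spermatids, with all 5 lines above them in Zfp663 and below them in Zfp334. The last 3 kb of Zfp69 had 16.5%, 18.3% and 36.9% in DKO lines 1 to 3, 16.1% and 29.2% in WT lines 1 and 2, and 0.666% in round spermatids (interval 0.491 to 0.902). The last 3 kb of Zfp579 had a mean of 5.87% in the lines and 0.0415% in round spermatids, while that of Zfp341 had 6.42% in the lines and 0.171% in round spermatids, again with every line above.

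Over single CpGs, 416 of the 3348 positions of Zfp-named genes were above 90% in round spermatids (12.4%, against 15.6% for all protein-coding genes). At these 416 positions the mean level was 15.7%, 25.1% and 17.9% in DKO lines 1 to 3 and 23.6% and 14.3% in WT lines 1 and 2. Of them 61 were below 10% in all 5 lines (14.7%, against 13.3% for all genes) and 2 were at 50% or more in all 5. By distance from the start, the mean in the first 500 bases downstream was 0.196% in the lines and 0.0671% in round spermatids (116 genes), and at 5 to 10 kb it was 18.4% in the lines and 75.1% in round spermatids (42 genes), where round spermatids had 66.5% over the other genes. Beyond that the Zfp-named genes had lower round spermatid levels than the other genes, with 49.9% against 72.3% at 10 to 20 kb and 41% against 76.5% at 20 to 50 kb, on 27 and 26 Zfp-named genes. Bins from 1000 to 500 bases before the start, 1 to 2 kb and 50 to 200 kb held 18, 14 and 11 Zfp-named genes, so little weight rests on them.

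**Figure D4:**
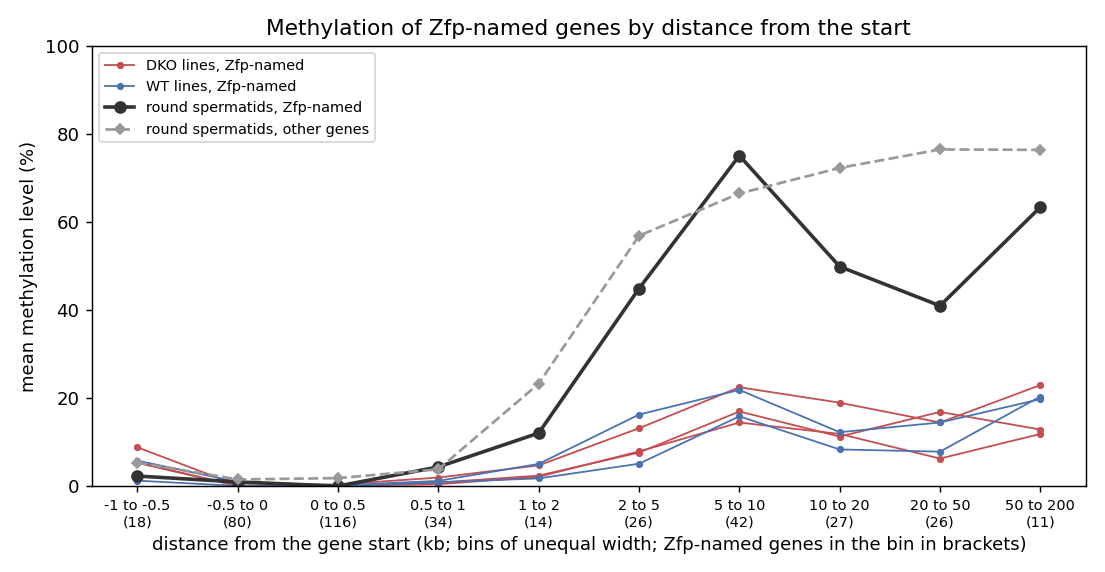
Mean methylation level in percent (y axis) of Zfp-named genes against distance from the gene start (x axis, bins of unequal width, with the number of genes in brackets). Thin lines are single DKO and WT lines, the black line is round spermatids, and the dashed grey line is round spermatids over the other genes; round spermatids reach 75.1% at 5 to 10 kb, while the lines stay at or below 23%.

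Of 42 Zfp genes listed for a known role, 29 were measured, and 14 of these were below 1% in all 6 libraries over the whole gene, where 41.5% of the 207 Zfp-named genes and 36.9% of all genes were. Among genes of retroelement and imprint silencing, Zfp445 had a whole-gene mean of 0.0961% in the lines and 0.0252% in round spermatids. Over the whole gene Zfp568, which represses an Igf2 transcript of the placenta, had 0.0255% in the lines and 0% in round spermatids. Zfp932, which binds retroelements, had 0.042% in the lines and 0.065% in round spermatids, the same as its promoter. Zfp809, which silences murine leukaemia proviruses in ES cells, had a whole-gene mean of 6.27% in the lines and 8.15% in round spermatids. No body was measured in Zfp445, Zfp568 or Zfp932, so bodies cannot be compared among these genes. The body of Zfp809 had 1.97%, 28.4% and 27.9% in DKO lines 1 to 3, 3.02% and 5.2% in WT lines 1 and 2, and 14.7% in round spermatids (interval 13.9 to 15.6). Over the body DKO lines 2 and 3 were above round spermatids and the other 3 lines below. Most of its methylation lay at the CpGs 1111 and 1125 bases after the start, and at the first of these WT line 2, with 16.2%, was also above the 3.71% of round spermatids, while the promoter stayed at or below 0.139% in every library. Zfp57 was not analysed here.

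Among pluripotency regulators, Zfp42 (Rex1), a marker of naive ES cells, was at 0% in all 6 libraries over 4 promoter CpGs, where the round spermatid limit is 1.12%. Zfp281, another ES cell regulator, had 0.00576% in the lines and 0.00918% in round spermatids, while Zfp143 had 0.0737% in the lines and 0.086% in round spermatids. The regulators of neural and other development differed widely among themselves. In the body of Zfp423, which acts in cerebellar and fat cell development, 24 of 48 CpGs were above 90% in round spermatids and 22 were below 10%, and its level was 8.08%, 6.24% and 4.88% in DKO lines 1 to 3, 15.2% and 2.76% in WT lines 1 and 2, and 27.5% in round spermatids. Zfp536, a regulator of neuron differentiation, had 16.4%, 18.6% and 11% in DKO lines 1 to 3, 21.3% and 14.1% in WT lines 1 and 2, and 50.3% in round spermatids over 39 body CpGs, of which 20 were above 90% there. Zfp521, whose strand was not known, had 16%, 22.7% and 28.1% in DKO lines 1 to 3, 23.3% and 2.16% in WT lines 1 and 2, and 77.6% in round spermatids over 14 CpGs of the whole gene. Zfp503, in contrast, was below 1% in every library over 70 CpGs. Between these stood Zfp462, with a whole-gene mean of 8.84% in the lines and 17.1% in round spermatids, as well as Zfp703, with 1.39% in the lines and 1.33% in round spermatids. Over the whole gene Zfp365, which acts in the DNA damage response, and Zfp459 averaged 4.02 and 6.15 points higher in the lines. Not every line was above round spermatids in Zfp459. In the body of Zfp365 DKO line 2 had 0.0555%, below the 0.0608% of round spermatids, and WT line 1 had 15.1%.

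Zfp217 and Zfp91 were also lower in the lines. The body of Zfp217, a partner of repressor complexes, had 16.8%, 23.5% and 9.14% in DKO lines 1 to 3, 22% and 7.91% in WT lines 1 and 2, and 70.2% in round spermatids (interval 68.7 to 71.6). The body of Zfp91, a ubiquitin ligase, had 0.0621%, 55.1% and 0.265% in DKO lines 1 to 3, 22% and 25.3% in WT lines 1 and 2, and 81% in round spermatids. All of that lay at 2 CpGs about 10 kb from the start, and DKO line 2 kept 99.4% at the first of them while DKO lines 1 and 3 had 0.16% and 0.735%. Zfp628, needed for gene expression in late spermatogenesis, had 12.5%, 20.8% and 13.6% in DKO lines 1 to 3, 15.4% and 17.9% in WT lines 1 and 2, and 27.9% in round spermatids in its last 3 kb, where 6 of 16 positions also lie in Nat14.

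No Zfp-named gene passed the test between DKO and WT lines. The quasi-likelihood test of edgeR on methylated and unmethylated counts, adjusted by Benjamini-Hochberg over all genes, called 0 of 121 Zfp promoters, 0 of 59 bodies, 0 of 30 last 3 kb windows and 0 of 199 whole genes tested. It also called none of all genes in any of these (0% of 6461 promoters, 4598 bodies, 1312 last 3 kb windows and 11837 whole genes). At an unadjusted p under 0.05 it had 4 Zfp promoters (against 2.6% of all promoters), 3 bodies (against 2.15%), 0 last 3 kb windows (against 2.36%) and 4 whole genes (against 2.46%). After adjustment limma called 0 in each as well. Unadjusted, limma had 11 of 121 Zfp promoters (282 of all 6461) and 3 of 59 bodies (149 of 4598). It had 0 of 30 last 3 kb windows (46 of 1312) and 7 of 199 whole genes (404 of 11837). The body of Zfp993 came closest among Zfp bodies (edgeR adjusted p = 0.833), with 0.0383%, 0.0404% and 0.0199% in DKO lines 1 to 3 and 1.17% and 0.781% in WT lines 1 and 2. With line name as a block 1 Zfp promoter was called, Zfp879 (edgeR adjusted p = 0.0424), in a fit with 1 residual degree of freedom that called 13 of all 6461 promoters (0.201%).

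The group means overlapped widely. Over Zfp-named genes the DKO and WT lines averaged 0.375 ± 0.154% and 0.628 ± 0.725% at promoters, 8.38 ± 3.16% and 8.72 ± 2.31% in bodies, and 8.89 ± 2.36% and 8.48 ± 4.88% in last 3 kb windows (SD, n = 3 DKO and 2 WT lines). All DKO lines lay above both WT lines at 22 of 127 Zfp promoters (17.3%, against 13.1% of all promoters) and below at 4 (against 4.07%). In bodies they lay above at 2 and below at 6 of 60, against 8.43% and 6.32% of all bodies, and in last 3 kb windows above at 1 and below at 1 of 31, against 9.45% and 6.22%. Of the 22 promoters above, 18 differed by less than 0.1 points, so only Zfp651, Zfp229, Zfp423 and Zfp503 differed by more. Zfp503 was the widest of these, with 1.13%, 0.274% and 3.85% in DKO lines 1 to 3 against 0.0313% and 0.136% in WT lines 1 and 2 (edgeR adjusted p = 0.967). In bodies Zfp507 lay highest above, and Zfp951 lay farthest below with 46.7%, 43.3% and 5.76% in DKO lines 1 to 3 against 49.4% and 53.2% in WT lines 1 and 2. At none of these was the difference past the test.

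Clustered genes were set against lone ones in each library. At promoters the clustered genes averaged 0.613% and the lone genes 0.354% in the lines, and clustered were higher than lone in 5 of 5 lines, by 0.259 points on average (SD 0.192), while in round spermatids the difference was 0.0442 points. By medians over genes the difference in the lines was 0.00375 points, so it comes from a few genes. Of the methylated promoters described above, Zfp14 (mean of 18.9% in the lines), Zfp560 (6.73%) and Zfp879 (3.07%) are clustered. Zfp951 (11%) and Zfp169 (4.89%) are lone. Zfp14 has the highest mean in the lines of all Zfp promoters, nearly all of it at a single CpG. Spread over the 60 clustered promoters, the 18.9% of Zfp14 adds more to their mean than the difference of 0.259 points. The higher clustered mean over the lines thus depends on Zfp14, and single lines without that gene were not tested. In bodies clustered genes averaged 9.47% and lone genes 7.92% in the lines, a difference of 1.55 points (SD 1.56) that was positive in 4 of 5 lines, and in round spermatids clustered genes were 9.96 points higher. In the last 3 kb windows clustered genes averaged 7.62% and lone genes 11.1% in the lines, a difference of -3.44 points (SD 2.86) that was negative in 4 of 5, and in round spermatids clustered genes were 4.04 points higher, a sign that turned with other settings (-0.211 points at a minimum of 20 reads, -8.13 with 5 positions). The lower rule took 10 of 23 clustered bodies (43.5%) and 13 of 37 lone ones (35.1%), and 7 of 21 clustered last 3 kb windows (33.3%) and 3 of 10 lone ones (30%).

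**Figure D5:**
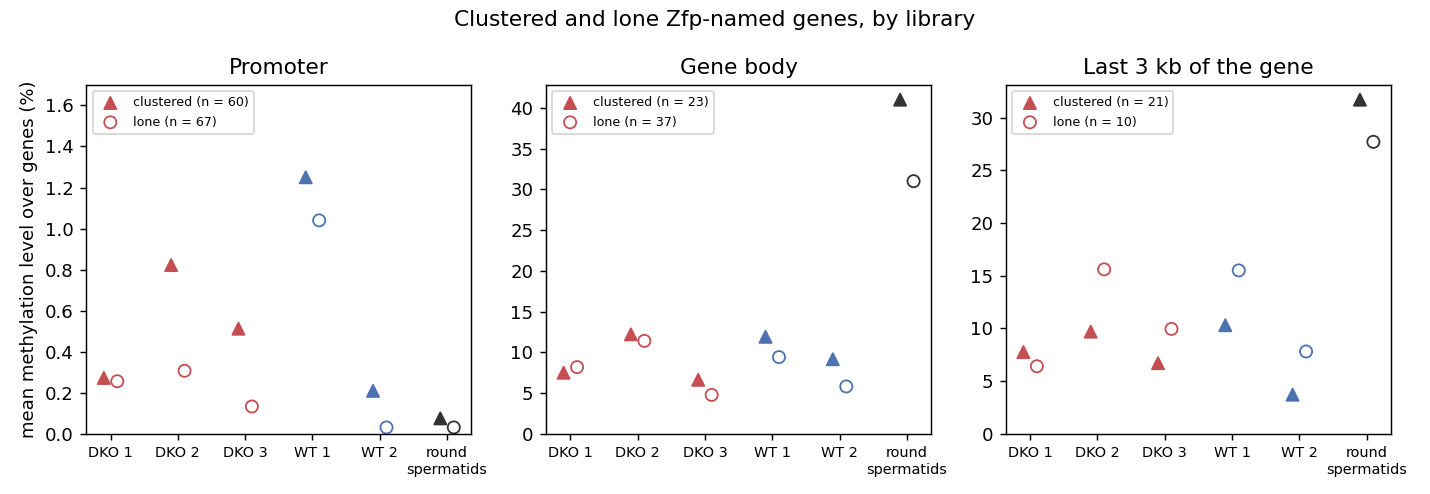
Mean methylation level in percent of clustered (filled triangles) and lone (open circles) Zfp-named genes in each library, for promoters, bodies and last 3 kb windows on separate y scales. Each point is the mean over genes of 1 library. At promoters the triangle is above the circle in all 5 lines, by 0.259 points on average but 0.00375 points by medians over genes. That average difference depends on Zfp14.

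The clusters differed in whole-gene level, and also in which regions were covered. The largest on chromosome 7 (chr7:29768552-30169775) has 15 Zfp-named genes, of which 7 were measured, with a whole-gene mean of 7.16% in the lines and 32% in round spermatids. Over the whole gene 2 of these, Zfp566 and Zfp74, were lower. The body of Zfp84 in this cluster was lower too, with a mean of 23.6% in the lines and 76.3% in round spermatids. The cluster on chromosome 17 (chr17:21383707-21994366) has 13 genes, also with 7 measured, and averaged 0.208% in the lines and 0.274% in round spermatids, with none lower. Its measured regions were 6 promoters and 1 last 3 kb window, without a body. The chromosome 7 cluster had 2 promoters, 2 bodies and 2 last 3 kb windows. Whole-gene levels of these clusters thus mix unlike regions, and whether the clusters differ beyond that was not tested. There Zfp942 and Zfp943 share their promoter positions and are not separate measurements. The highest round spermatid mean among clusters with at least 2 measured genes was that of Zfp334 and Zfp663, 8.32% in the lines and 48.4% in round spermatids, which rests on Zfp334 alone. Positions shared with another gene were present in 13 of 127 promoters, 3 of 60 bodies and 3 of 31 last 3 kb windows.

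Among the cofactors through which KRAB zinc finger proteins act, the measured promoters were nearly unmethylated and a few bodies were lower in the lines. Of 28 listed symbols, 26 lie on chromosomes 1 to 19 and 21 were measured. None of their 13 measured promoters was lower, and the highest level in any line was 0.514%. Of 14 measured bodies 4 were lower, against 42.5% of all bodies, namely those of the histone methyltransferases Ehmt1 and Ehmt2, the chromatin remodeller Smarcad1 and the HUSH subunit Pphln1. Ehmt1 had a mean of 18.8% in the lines and 100% in round spermatids, while Smarcad1 had 16.7% in the lines and 99.4% in round spermatids. Trim28 itself was measured in its body, not at its promoter, with 0.0191% in the lines and 0.0351% in round spermatids. The promoter of Setdb1 had 0.0472% in the lines and 0.0126% in round spermatids. Among other finger families the lower rule took 0 of 2 Zscan bodies, 0 of 1 Zkscan, 5 of 10 Zbtb and 3 of 7 Klf bodies, numbers too small to set apart from that share.

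Methylation does not measure expression, so markers of cell type describe the libraries and do not name the cells. The promoters of 4 germ cell genes measured, Mael, Asz1, Ddx4 and Dazl, averaged 7.94% in the lines and 0.178% in round spermatids, while that of the spermatid gene Tnp1 was 12.1% in the lines and 0% in round spermatids. The promoter of the pluripotency gene Utf1 averaged 0.0375% in the lines and had 7.13% in round spermatids. That of Zfp42, also a pluripotency gene, was at 0% in all 6 libraries. Feeder cells could add their own DNA to the lines. The 3 fibroblast genes measured differed widely over the whole gene. Col1a1 averaged 11.5% in the lines and had 99.9% in round spermatids, while Thy1 had 9.78% and 34.4%. Vim had 0.03% in the lines and 0.0394% in round spermatids. The share of feeder DNA was not tested.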

How the data were processed

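DNA methylation was measured by RRBS in 3 DKO AG-haESC lines, 2 WT lines and 1 round spermatid library. Per the submitters' processing notes, Bismark 0.12.2 and the build mm10 were used. How reads were trimmed and deduplicated is not given in the sources used here. The files deposited by the authors give, per position, counts of methylated and unmethylated reads, with a fraction for the share methylated. The deposited fraction equalled methylated over all reads within 1e-09.

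Positions needed 10 reads in all 6 libraries and regions 3 positions, and counts were summed over a region. Genes, starts and strands came from RefSeq (GRCm38.p6). No exon table was used, so the last 3 kb of a gene replaced the last exon of the planned design. Lines were set against round spermatids by a rule of size (25 points, all 5 lines on one side) and DKO against WT lines by edgeR 4.0.16 in R 4.3.3, with a term per library and a common dispersion, Benjamini-Hochberg over all genes measured for that region (threshold 0.05). A region with the same value in all 5 lines was left untested. The tests between DKO and WT lines were also run on simulated counts, built from the levels of the lines with known differences added. That outcome is not given here. limma 3.58.1 on log2 of methylated over unmethylated reads, with 1 read added to each, was an alternative. No p-value is given for means over Zfp-named genes. The genes, gene lists and tests were chosen with earlier results of these data known. Named genes were those with a known role, the 8 largest differences per region past the rule of size, the widest non-overlapping DKO and WT differences, the 5 promoters highest in the lines, and the largest and most methylated clusters. WT and DKO titles share the line names OG3 and AGH-2. The difference between the name pairs correlated between WT and DKO lines across Zfp-named genes at r = 0.282 for promoters, 0.135 for bodies and 0.0857 for last 3 kb windows and 0.021 for whole genes, and over all genes at -0.0457 for promoters, 0.124 for bodies, 0.0914 for last 3 kb windows and 0.15 for whole genes, where genes are not independent. The values thus do not show the pairing at promoters, and the block rests on the shared names.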

Additional observations from a re-analysis of the deposited data

Results flagged for a closer look

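In 9 of 41 named Zfp regions, 1 line stood far from the other 4 by Dixon's test at the 95% level. Chance does so in about 1 group of 20, but these regions include promoters named for a high level in the lines, so the count cannot be read against that share. WT line 1 was the far line in 6 of them. It was high at the promoters of Zfp951 (54.8%), Zfp560 (33.3%) and Zfp879 (11.3%), in the bodies of Zfp839 (1.72%) and Zfp748 (15.7%) and in the last 3 kb of Zfp553 (1.73%). WT line 1 also had the highest mean over all positions, 8.06%, and whether that bears on these genes was not tested. DKO line 3 was the far line in the body of Zfp951, low at 5.76%, and in the last 3 kb of Zfp213, high at 13.9%. DKO line 2 was high in the last 3 kb of Zfp773, at 1.91%.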

How the results depend on the processing

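Of the 33 bodies and last 3 kb windows past the rule of size, 32 kept their call in every alternative that gave a value, and Zfp748 lost it at a coverage minimum of 20 reads (-18.7 points). The last exon of the transcript that ends furthest 3′ was not run, as exons were not used here. Windows of 2 and 5 kb were chosen after seeing the data. Differences below are points, lines minus round spermatids or clustered minus lone genes, and causes were not tested.

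Medians over genes in place of means gave 0.00375 for promoters, -8.44 for bodies and 1.15 for last 3 kb windows in lines minus round spermatids, so the sign of the last is that of a minority of genes under the mean. With 5 or more positions per region, which leaves fewer genes, these were -20.9 for 45 bodies and -15 for 17 last 3 kb windows, and lower calls fell to 15 bodies and 4 windows. Unweighted means gave -29.7 for bodies. The last 2 kb gave -10.9 with 4 lower calls, and the last 5 kb -26.2. No Zfp promoter or whole gene was called by edgeR between the lines and round spermatids. edgeR on 5 lines against 1 library called 11 Zfp bodies and 2 last 3 kb windows lower, and 1 body and 3 windows higher.

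Clustered minus lone genes was the least stable. In the lines it was 0.00375 at promoters by medians, and in bodies 3.47 at 20 reads, 4.11 with 5 positions and 3.97 for runs of 3 or more genes. In round spermatid bodies it was 12.5 at 5 reads, 13.5 at 20 reads, 14.7 with 5 positions, 8.16 unweighted, 5.03 by medians, 8.14 and 8.1 with neighbours within 50 and 250 kb, and 19.9 for runs of 3 or more. In round spermatid last 3 kb windows it was -0.211 at 20 reads, -8.13 with 5 positions, 26 and -1.95 for the last 2 and 5 kb, 12.7 by medians and -5.1 with neighbours within 250 kb, so its sign depends on these choices.

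With line name as a replicate block, 1 Zfp promoter was called between DKO and WT lines (13 of all 6461 promoters), and no Zfp body, last 3 kb window or whole gene. The mean within-name differences, DKO minus WT, were -0.197 points at promoters, -0.112 in bodies and 1.19 in last 3 kb windows. Leaving out each line in turn moved DKO minus WT between -0.765 and 0.26 points at promoters, -2.03 and 1.29 in bodies and -3.05 and 3.86 in last 3 kb windows, so no direction held, and changed no count of lower calls. Depth limits single genes, as 3 to 5 CpGs carry many of the values.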
